A study of Mus musculus with 10 samples.

Results

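Mutant cells at 4 days were compared with cells of lungs that carry no mutation, with libraries chosen by their labels alone. The comparison holds 4 of the 10 libraries of the series: RFP+ cells of Red2Kras lungs 4 days after induction (2 libraries, replicates 1 and 2), and RFP+ and YFP+ cells of Confetti lungs (1 library each). Barcodes were kept with at least 1000 genes, at most 50000 unique molecular identifiers (UMIs, which count captured transcript molecules), at most 15% mitochondrial UMIs and no UMI of Ptprc, the gene of the leukocyte antigen CD45. This left 13415 of the 18534 barcodes in these libraries, against 30599 of 42012 in the whole series. Both mutant replicates were set beside both Confetti libraries gene by gene, and the question was which genes differ soon after the oncogene is switched on.

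Droplet transcriptomes were made from EpCAM+ epithelial cells of the distal mouse lung, sorted by reporter colour. All mice carry Sftpc-CreERT2, a tamoxifen-dependent Cre recombinase driven by the surfactant protein C gene, and received 3 doses of tamoxifen at 0.2 mg per g body weight. The Sftpc-CreERT2;R26R-Confetti line marks cells red or yellow without an oncogene, so neither colour is mutant. In the Sftpc-CreERT2;Red2Kras line the red cells are the mutant cells. Its yellow cells, the wildtype neighbours, served here as a further reference (2 libraries at 4 days). Lungs were pooled for each sample, so a library is a pool. The methods list Confetti as a single experiment, so its red and yellow libraries are colours of the same collection, whereas mutant replicates 1 and 2 are separate pools. No time is labelled for Confetti, whose collection is placed at 2 weeks by the methods, so time after tamoxifen and genotype cannot be told apart in any difference from Confetti. Mutant cells and wildtype neighbours at 4 days share their time. The methods also state that 4 days mice were collected before tamoxifen had washed out. Library preparation took place on 2 days and no label ties a library to a day.

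Alveolar type 2 (AT2) cells are the surfactant-making stem cells of the alveolus, which renew themselves and give rise to the thin alveolar type 1 (AT1) cells that carry gas exchange. After injury AT2 cells pass through a keratin-high intermediate, the damage-associated transient progenitor (DATP), which loses surfactant genes and expresses Krt8 and Cldn4. Active Ras GTPases drive the RAF-MEK-ERK kinase cascade, whose nuclear output includes ETS and AP-1 transcription factors and the phosphatases that dampen ERK.

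The libraries differed in more than genotype, and these differences stand beside every result. Kept cells numbered 3914 and 4121 in Confetti RFP and YFP, 3801 in mutant replicate 1 and 1579 in mutant replicate 2, with 9210705 to 20417301 UMIs per library and medians of 3251 to 5144 UMIs per cell. Among cells whose sex could be read from Xist and 4 Y-linked genes, 100% were female in both Confetti libraries, 82.3% in mutant replicate 1 and 0.383% in mutant replicate 2, so sex and replicate cannot be told apart. Wildtype neighbours at 4 days held 83.7% and 0.179% female cells, close to the same-numbered mutant library. Mutant replicate 2 also held immune carry-over: 126 of its 1579 kept cells (7.98%) had UMIs of at least 2 of 9 immune genes, against 13 to 21 cells in the other 3 libraries. The summed level of the 18 immune markers was 932 CPM (counts scaled to the same library total) there, against 112 to 148 CPM in the others. Its endothelial and mesenchymal markers were the lowest of the 4 libraries, at 41.5 and 0.217 CPM, against 138 to 278 CPM and 17.3 to 32.7 CPM. The 4 libraries shared at most 3 cell barcodes with each other, and doublets were not removed.

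The lineage label was checked by its defining marker. Sftpc, the surfactant protein C gene, took 116390 and 94228 CPM in Confetti RFP and YFP and 130870 CPM in mutant replicate 1, but 59078 CPM in mutant replicate 2. The mutation itself could not be checked, because the counts do not separate the mutant from the native transcript. CPM here are scaled by the trimmed mean of M values (TMM), which corrects library totals for differences in composition. Several CPM given below within cells sorted by Sftpc level, such as those of Cldn4 and Hmga2, are scaled by summed UMIs alone. With sums over cells, fewer cells of a type and less RNA per cell cannot be told apart.

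The 2 mutant libraries, which are separate pools, differed from each other more than the 2 colours of the single Confetti collection did. Across 14856 genes tested, 2028 (13.7%) differed at least 2-fold between mutant replicates 1 and 2, against 87 (0.586%) between Confetti RFP and YFP. The quasi-likelihood test of edgeR, with Benjamini-Hochberg adjustment, called 0 genes between 4 days RFP and Confetti (0% of genes tested). In the same test 871 genes had an unadjusted p under 0.05, the smallest adjusted p was 0.0745 (Ddx3y, a Y-linked gene), and DESeq2 called 126 genes. A two-sided exact permutation test of 2 against 2 libraries could not go below p = 0.333, and the Confetti libraries are not separate collections. Results are therefore given library by library.

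Each mutant replicate was next read against both Confetti libraries on the scale of log2(CPM + 1). Mutant replicate 1 lay at least 2-fold above both Confetti libraries for 98 genes (0.66%) and at least 2-fold below both for 81 genes (0.545%). Mutant replicate 2 did so for 1278 genes (8.6%) and 897 genes (6.04%). Both replicates lay at least 2-fold above for 67 genes (0.451%) and at least 2-fold below for 49 genes (0.33%). Both replicates are read against the same Confetti libraries, so the counts are not independent of each other. In 61 of the 67 shared higher genes the difference was larger in replicate 2.

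**Figure D1:**
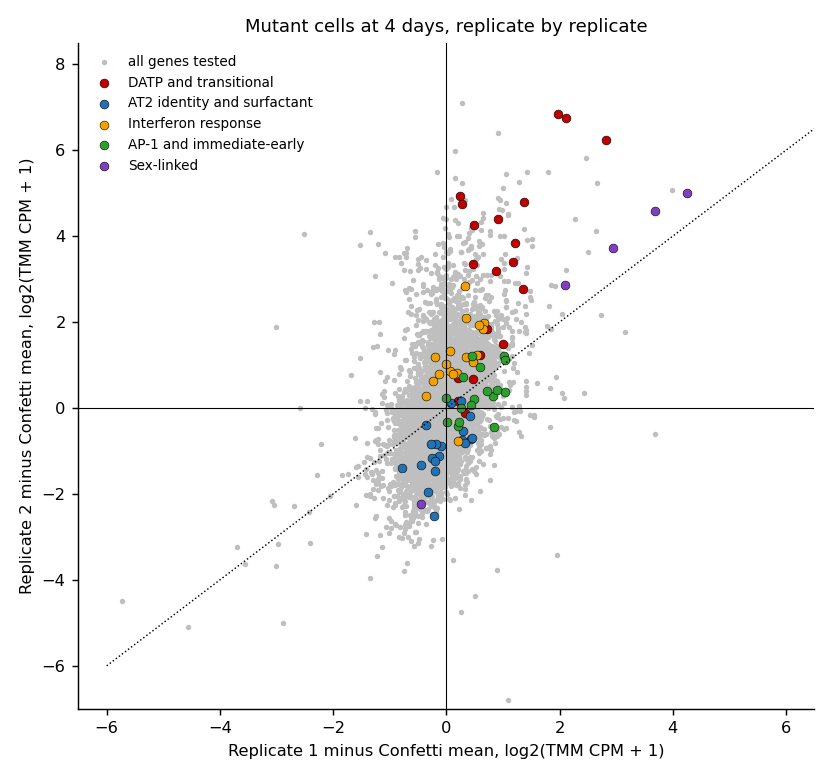
Difference of each gene from the mean of the 2 Confetti libraries in mutant replicate 1 (x axis) and mutant replicate 2 (y axis), both in log2(TMM CPM + 1), with gene lists in colour and the dotted line at equality. Grey points spread further along y than along x, transitional (DATP) genes lie to the upper right and far above the line, and most surfactant genes lie below 0 on y.

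Among the shared higher genes, Dlk1 and Meg3 lie at the same imprinted locus on chromosome 12. Dlk1 encodes a membrane protein of the Delta family that marks immature cells, and had 0 UMIs in both Confetti libraries. It reached 14.8 CPM in mutant replicate 1 (291 UMIs) and 32.6 CPM in mutant replicate 2 (301 UMIs), with a mean of 23.7 ± 12.6 CPM (SD, n = 2). Against a floor of 3 UMIs over both Confetti libraries this is at least 260-fold higher, and wildtype neighbours at 4 days held 0 and 0.0601 CPM. Few cells carried it: after thinning each cell to 2000 UMIs, 16 of 3778 cells (0.424%) in replicate 1 and 22 of 1450 (1.52%) in replicate 2 had a Dlk1 UMI. Meg3, a maternally expressed long non-coding RNA, stood at 4.56 and 5.30 CPM in Confetti and at 38.2 and 25.7 CPM in the mutant replicates. Meg3 is thus 1 of the 6 shared genes with the larger difference in replicate 1, and wildtype neighbours held 5.00 and 2.46 CPM. The Dlk1 gene lies at chr12:109452823-109463336 and Meg3 at chr12:109541001-109571726, both on the plus strand (GRCm38, GENCODE M21). The edgeR adjusted p was 0.673 for Dlk1 (unadjusted 0.000567) and 0.794 for Meg3.

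Cldn4, which encodes a tight junction claudin of the transitional state, was low in Confetti at 1.01 CPM (RFP) and 2.12 CPM (YFP). It stood at 16.6 CPM in mutant replicate 1 and 186 CPM in mutant replicate 2, so both mutant libraries lay above both Confetti libraries and far apart from each other. Wildtype neighbours at 4 days held 2.63 and 5.46 CPM, above Confetti and below the mutant cells. The log2 fold change was 6.11 (SE 1.32) with an edgeR adjusted p of 0.794. After thinning to 2000 UMIs, Cldn4 was detected in 0.180% of Confetti RFP cells (exact 95% binomial interval 0.0722 to 0.370) and in 0.294% of Confetti YFP cells (0.152 to 0.514). The share was 1.85% (1.44 to 2.33) in mutant replicate 1 and 17.5% (15.7 to 19.5) in mutant replicate 2, whereas 2 of 157 Ptprc+ barcodes of that library (1.27%) held a UMI. Without thinning the shares were 0.358% and 0.607% in Confetti and 3.79% and 27.2% in the mutant replicates. These intervals cover counting error only.

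The start regions of Dlk1 and Cldn4 are shown because the first had no Confetti UMI and the second is a defining transitional gene. Each runs from 250 bases before the annotated start to 50 after it, from RefSeq on GRCm38.p6, in the direction of transcription. Dlk1 lies at chr12:109452573-109452872 (plus strand) and Cldn4 at chr5:134946885-134947184 (minus strand). Capitals mark the AP-1 motif TGANTCA.
Dlk1: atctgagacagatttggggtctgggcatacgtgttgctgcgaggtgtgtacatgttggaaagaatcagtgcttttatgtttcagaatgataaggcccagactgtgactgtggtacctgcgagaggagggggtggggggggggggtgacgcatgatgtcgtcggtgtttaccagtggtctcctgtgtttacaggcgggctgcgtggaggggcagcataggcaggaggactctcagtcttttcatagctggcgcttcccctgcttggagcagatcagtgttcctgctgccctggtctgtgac
Cldn4: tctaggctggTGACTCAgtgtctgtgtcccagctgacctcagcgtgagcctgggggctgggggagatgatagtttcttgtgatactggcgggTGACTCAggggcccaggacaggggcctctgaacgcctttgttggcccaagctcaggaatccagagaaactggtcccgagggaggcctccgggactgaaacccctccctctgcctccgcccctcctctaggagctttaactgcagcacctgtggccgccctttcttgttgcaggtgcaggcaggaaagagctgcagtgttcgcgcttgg
Of the 12 higher genes named by rule, 9 had an entry in the set of start regions used, with 10 start regions. TGANTCA, searched on both strands, was found in 1 of the 10, at 2 places upstream of the Cldn4 start, and is present in 7.81% of all 32851 mouse start regions of this length. The ETS motif CCGGAAG was found in 0 of the 10 and in 8.86% of all. A match is a description of letters in this window and not a bound site.

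Over all kept cells, several ligands of the epidermal growth factor family stood higher in both mutant replicates than in Confetti, and their receptors did not. Ereg (epiregulin) stood at 0.474 and 0.623 CPM in Confetti, 8.83 CPM in mutant replicate 1 and 57.2 CPM in replicate 2. Areg (amphiregulin) stood at 159 and 112 CPM in Confetti, 280.2 CPM in replicate 1 and 574 CPM in replicate 2. Hbegf, the heparin-binding ligand, stood at 41.6 and 36.5 CPM against 70.7 and 120.5 CPM. For all 3 ligands the mutant libraries lay above Confetti and above the 4 days YFP libraries, whose Areg levels were 140.2 and 141 CPM. Of the receptors, Egfr stood at 5.04 and 5.74 CPM in Confetti and 3.50 and 3.36 CPM in the mutant replicates, while Erbb2 and Erbb3 overlapped between the groups. Of 9 genes tested in the list of ligands and receptors, 6 lay above and 1 below both Confetti libraries in both replicates, where 22.5% and 24.5% of all genes tested did. The list's median difference was 0.39 in replicate 1 and 1.06 in replicate 2, against -0.01 and -0.02 for all genes. None of these members was called by the edgeR test, and 6 of the 9 had an unadjusted p under 0.05. In cells with at least 100 Sftpc UMIs per 10000 UMIs (Sftpc-high), 4 members lay above both Confetti libraries and the medians were 0.30 and 0.15. Of 13694 genes tested in these cells, 3112 lay above both Confetti libraries in both replicates. There the ligand gene Btc (betacellulin) stood at 3.96 CPM in replicate 2, below Confetti at 5.47 and 6.05 CPM.

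ERK output genes differed by member. Etv4, an ETS factor induced by ERK, was nearly absent from Confetti at 0.356 and 0.374 CPM and from wildtype neighbours at 0.424 and 0.841 CPM. It reached 6.70 CPM in mutant replicate 1 and 15.8 CPM in replicate 2. Its relative Etv5, an AT2 gene, ran the other way, with 331 and 396 CPM in Confetti against 303 and 161 CPM. Among the feedback phosphatases, Dusp6 stood at 44.8 and 48.1 CPM in Confetti and at 86.6 and 72.1 CPM in the mutant libraries, with the larger difference in replicate 1. Dusp5 and the AP-1 gene Fosl1 were higher chiefly in replicate 2, where Dusp5 reached 109 CPM against 7.51 CPM in replicate 1 and at most 5.49 CPM in Confetti. The feedback inhibitor gene Spry1 did not stand higher, at 155 and 64.5 CPM in the mutant replicates against 167 and 155 CPM. Of 22 members, 14 lay above and 2 below both Confetti libraries, 1 beyond 2-fold in both replicates, against 22.5%, 24.5% and 0.451% of all genes tested, and the medians were 0.41 and 0.66. Ras and RAF genes themselves had medians of -0.02 and 0.10 over 10 members.

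Transitional genes stood higher in both mutant replicates, and much more so in replicate 2. Of 20 DATP genes, 19 lay above both Confetti libraries in both mutant replicates and 0 below, and 7 were beyond 2-fold in both. Of all genes tested, 22.5% lay above, 24.5% below and 0.451% beyond 2-fold above in both. The list includes Itga2 and Hmga2, which this study reports in mutant DATP-like cells as differences from DATPs of regeneration. Its direction, here and below, is therefore no independent evidence. In replicate 1, 7 members were beyond 2-fold with a median difference of 0.80, and in replicate 2 it was 16 members with a median of 3.37. Krt7, a simple-epithelium keratin, stood at 67.0 and 60.0 CPM in Confetti, 144 CPM in replicate 1 and 681 CPM in replicate 2. Krt8, the defining DATP keratin, stood at 298 and 268 CPM, 427 CPM and 671 CPM. Clu (clusterin, a secreted chaperone) stood at 173 and 159.9 CPM in Confetti, 385 CPM in replicate 1 and 2410.1 CPM in replicate 2. In all 3 genes the order was Confetti, replicate 1, replicate 2 without overlap. Wildtype neighbours stood above both Confetti libraries for Krt7 at 71.1 and 82.6 CPM and for Clu at 191 and 354 CPM, the latter close to mutant replicate 1, and held Krt8 at 287 and 292 CPM. Other members were low in replicate 1. The collagen-binding integrin gene Itga2 stood at 5.18 CPM in replicate 1 and 152 CPM in replicate 2, against at most 0.499 CPM in Confetti. Hmga2, an embryonic chromatin factor, stood at 3.96 and 145 CPM against at most 0.436 CPM. Sox9, a distal progenitor factor, stood at 0.914 CPM in replicate 1, close to Confetti (0.474 and 0.686 CPM), and at 41.5 CPM in replicate 2. Itgb6 was the member that did not lie above Confetti in both replicates, at 8.24 CPM in replicate 2, below both Confetti libraries, and 11.5 CPM in replicate 1, above them.

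**Figure D2:**
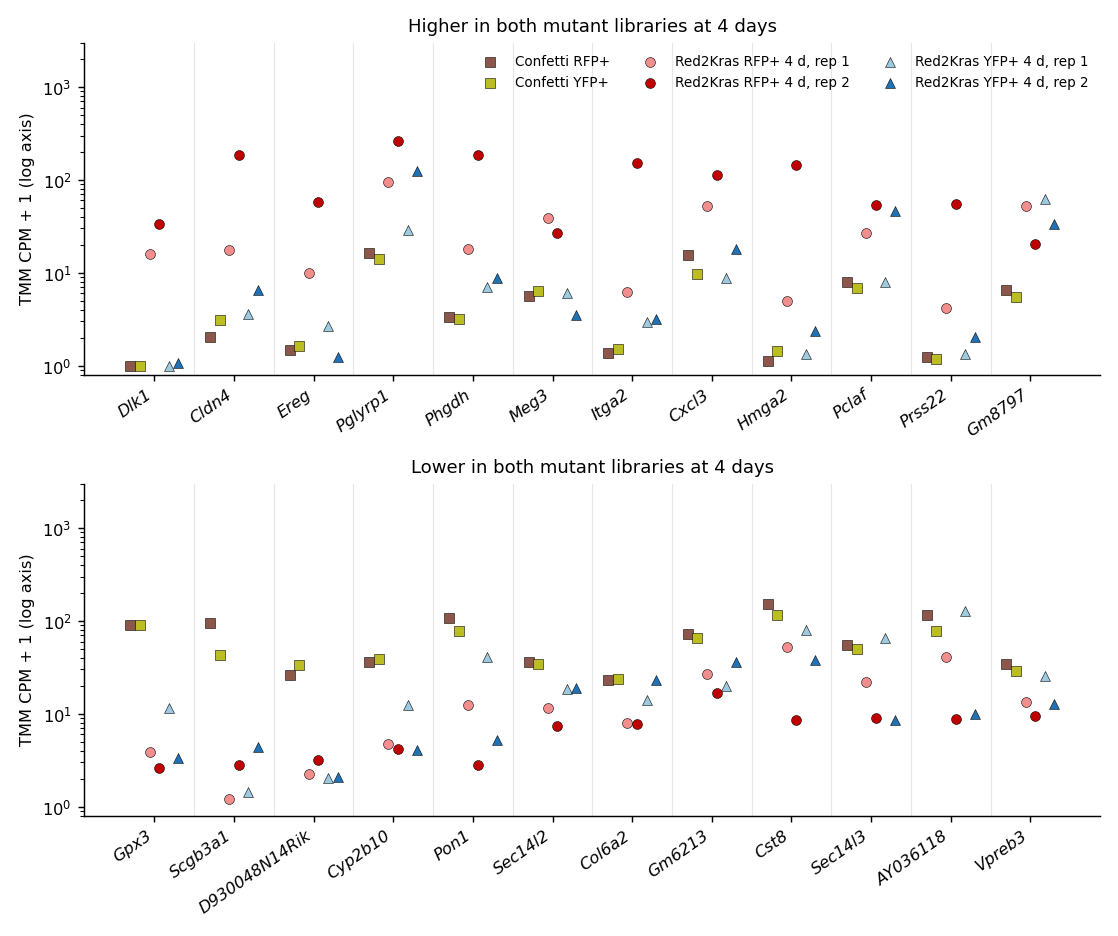
TMM-scaled CPM + 1 on a log axis for the 12 genes with the largest smaller-of-2-replicates difference in each direction, with 1 point per library for Confetti (squares), mutant cells at 4 days (circles) and wildtype neighbours at 4 days (triangles). Mutant points of Dlk1, Cldn4, Ereg and Hmga2 lie above all reference points, whereas for Gpx3, Scgb3a1 and D930048N14Rik the triangles lie closer to the mutant points than to the squares.

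Genes that mark later mutant states were already detected at 4 days. Of 10 genes of the Cd177 mixed state and late mutant cells, 8 lay above both Confetti libraries in both replicates, where 22.5% of all genes tested did, with median differences of 0.73 and 3.77. Cd177, which encodes a surface protein best known from neutrophils, stood at 0.119 and 0.436 CPM in Confetti and at 1.83 and 2.93 CPM in the mutant replicates. Spp1 (osteopontin) stood at 7.35 and 11.2 CPM, 10.2 CPM and 207 CPM, so replicate 1 overlapped Confetti. Spp1 is also made by macrophages, and 43.9% of the Ptprc+ barcodes of replicate 2 held a Spp1 UMI against 7.98% of its kept cells. Gzme, a granzyme gene with close paralogs in its cluster, had 0 UMIs in Confetti and stood at 0.914 and 23.8 CPM in the mutant replicates. Gkn2 and Tff1, best known from gastric epithelium, showed the same order. Tff1 had 0 UMIs in Confetti and in wildtype neighbours and stood at 1.02 and 8.45 CPM, and Gkn2 stood at 0.965 and 21.8 CPM against 0.474 and 0.125 CPM. The list was drawn from states described in this study, so its direction is no independent evidence.

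Surfactant genes stood lower in replicate 2, with smaller differences in replicate 1. Of 20 AT2 identity genes, 8 lay at least 2-fold below both Confetti libraries in replicate 2 and 0 in replicate 1, against 6.04% and 0.545% of all genes tested. In both replicates 12 of the 20 lay below both Confetti libraries and 1 above, where 24.5% and 22.5% of all genes tested did. The median differences were -0.16 in replicate 1 and -0.84 in replicate 2. The lineage factor Nkx2-1 stood at 326 and 341 CPM in Confetti, 289.9 CPM in replicate 1 and 121 CPM in replicate 2. Lyz2, the lysozyme gene of AT2 cells and macrophages, stood at 49554 and 35386 CPM, 33354 CPM and 10781 CPM. Genes of AT1 differentiation had no common direction, with medians of 0.04 and -0.43 over 18 members. Among them Pdpn (podoplanin) was the member 2-fold higher in both replicates, at 2.02 and 2.74 CPM in Confetti, 11.6 CPM in replicate 1 and 22.9 CPM in replicate 2, against 4.32 and 4.92 CPM in wildtype neighbours. Hopx and Ager, classical AT1 genes, were not higher: Hopx stood at 31.8 and 19.9 CPM against 33.6 and 37.4 CPM.

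Sftpc per cell separated the replicates. Cells with at least 2 immune genes were left out for this, and a cell was called Sftpc-low with fewer than 100 Sftpc UMIs per 10000 of its UMIs, a limit placed after the distributions had been seen. Sftpc-low cells made up 2.77% of Confetti RFP, 4.05% of Confetti YFP and 3.17% of mutant replicate 1. In mutant replicate 2 they made up 36.4% (exact 95% interval 33.9 to 38.9, 529 of 1453 cells), of which 298 had no Sftpc UMI, and 27 cells lay within 2-fold of the limit. Wildtype neighbours had 7.37% and 1.49%. Most Sftpc-low cells also had fewer than 100 UMIs per 10000 of Scgb1a1, the club cell secretoglobin gene, with 517 in replicate 2, 113 in replicate 1, and 103 and 153 in Confetti. These sets are ranges of a count, not cell types. The Scgb1a1-high remainder was small, at 12 cells in replicate 2, yet these 12 cells held 129565 of the 130423 Scgb1a1 UMIs of the 1453 cells.

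**Figure D3:**
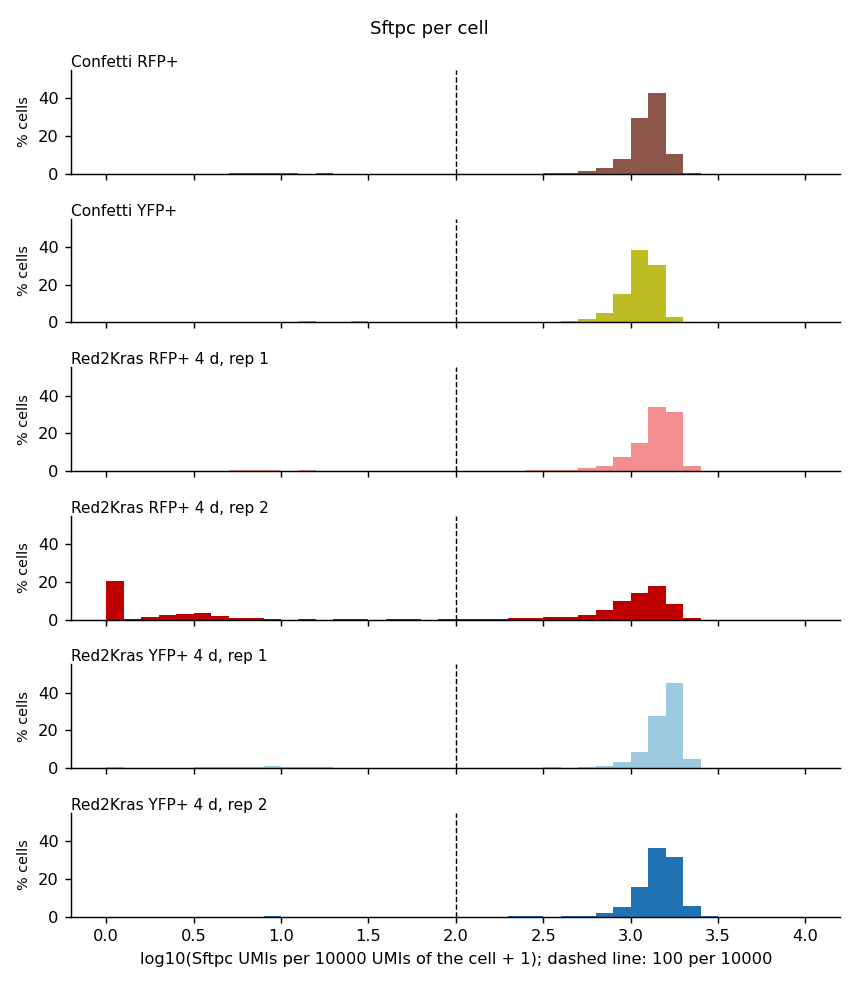
Share of cells (y axis, percent) by Sftpc UMIs per 10000 UMIs of the cell (x axis, log10 of the value plus 1) in 6 libraries, with the limit of 100 per 10000 dashed. Nearly all cells of the other 5 libraries form a single peak to the right of the line, and replicate 2 of the mutant cells has a further group on the left with 36.4% of its cells.

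The Sftpc-low, Scgb1a1-low cells of both mutant replicates carried more transitional genes than those of Confetti. Each cell was thinned to 2000 UMIs, and cells with at least 8 of the 20 DATP genes were counted. They made up 30.3% (21.8 to 39.8) of these cells in replicate 1 and 69.3% (65.1 to 73.3) in replicate 2, against 1.08% (0.0272 to 5.85) in Confetti RFP and 4.35% (1.61 to 9.22) in Confetti YFP. In wildtype neighbours the values were 4.42% (1.45 to 10.0) and 22.2% (10.1 to 39.2), the latter 8 of 36 cells. Krt7 stood at 966 CPM in these cells of replicate 1 and 1529 CPM in those of replicate 2, against 103 and 115 CPM in Confetti. Areg stood at 1219.9 and 1294 CPM against 319 and 117 CPM, so both replicates lay above both Confetti libraries. Confetti cells of this range held genes of other cell types, with the AT1 gene Hopx at 379.5 and 450.5 CPM against 223 and 13.7 CPM, and the ciliated cell factor Foxj1 at 146 and 135 CPM against 48.1 and 2.80 CPM. Over all cells the share with at least 8 DATP genes was 2.36% (1.90 to 2.89) in replicate 1, against 0.747% and 0.739% in Confetti, and 26.7% in replicate 2.

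Within replicate 2, the Sftpc-low cells were set beside its Sftpc-high cells as a description, since Sftpc chose them. Hmga2 stood at 402 CPM in the low and 6.02 CPM in the high cells, and Itga2 at 421 and 7.82 CPM. Aldh1a3, a retinoic acid synthesis enzyme, stood at 284 and 1.80 CPM, and Ndrg1, a stress and hypoxia gene, at 433 and 8.62 CPM. Lyz2 went the other way, at 173 and 19444 CPM, and so did the fatty acid desaturase gene Scd1, at 105 and 6087 CPM. Dlk1 did not follow the transitional genes, with 4.35 CPM in the low (14 UMIs) and 57.6 CPM in the high cells. Meg3 likewise stood at 3.73 and 44.5 CPM.

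**Figure D4:**
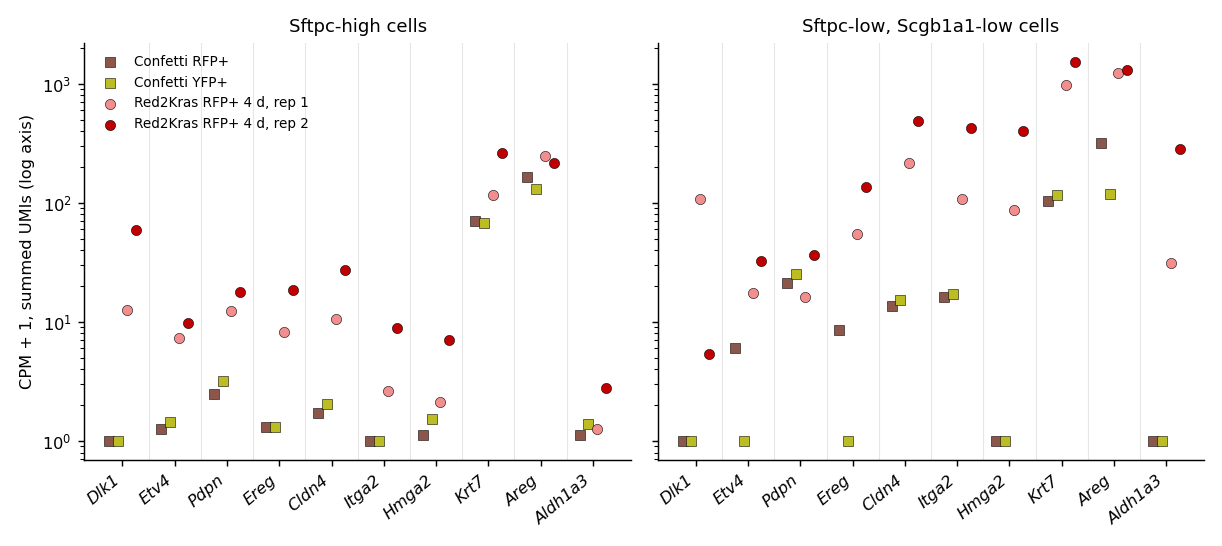
CPM + 1 from summed UMIs (log axis) for 10 genes in Sftpc-high cells (left) and in Sftpc-low, Scgb1a1-low cells (right), with 1 point per library for Confetti (squares) and mutant cells (circles). Mutant circles lie above the squares in both panels for Ereg and Cldn4, and Dlk1 of replicate 2 is higher on the left than on the right.

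The surfactant-rich cells differed from Confetti as well. In Sftpc-high cells alone, 64 genes (0.467% of 13694 tested) lay at least 2-fold above both Confetti libraries in both replicates and 38 (0.277%) at least 2-fold below, and replicate 2 alone had 632 (4.62%) and 430 (3.14%). The edgeR test called 3 genes (0.0219%) there: Ddx3y was higher, and Gpx3 (adjusted p = 0.0447) and D930048N14Rik (adjusted p = 0.0471) were lower. Cldn4 stood at 0.707 and 1.06 CPM in Sftpc-high cells of Confetti and at 9.59 and 26.5 CPM in those of the mutant replicates. Etv4 stood at 0.257 and 0.453 CPM against 6.38 and 8.82 CPM, so its replicates lay close together once the low cells were left out. Pdpn stood at 1.48 and 2.19 CPM against 11.4 and 16.6 CPM. In these cells 16 of 20 DATP genes lay above both Confetti libraries in both replicates, where 3112 of the 13694 genes tested did. The DATP medians were 0.60 and 1.12. The AT2 list had medians of -0.19 and -0.06, in cells that were chosen by their Sftpc level.

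Most of the lower genes named by rule, such as Gpx3 and D930048N14Rik, also stood below both Confetti libraries in both libraries of wildtype neighbours. Sec14l3 and AY036118 did not. In wildtype neighbours of replicate 1 Sec14l3 stood at 64.4 CPM, against 54.0 and 49.1 CPM in Confetti. AY036118 stood there at 127 CPM, against 114 and 77.4 CPM. Gpx3, a secreted glutathione peroxidase, stood at 89.6 and 89.5 CPM in Confetti, 2.84 and 1.63 CPM in the mutant replicates and 10.5 and 2.34 CPM in 4 days YFP cells. Over all kept cells its log2 fold change was -5.28 (SE 0.91) with an edgeR adjusted p of 0.673. D930048N14Rik, a transcript of unassigned function, stood at 25.3 and 32.3 CPM in Confetti and between 1.02 and 2.17 CPM in the 4 Red2Kras libraries at 4 days (log2 fold change -4.08, SE 0.50, edgeR adjusted p = 0.179). Cyp2b10, a drug-inducible cytochrome P450 with close paralogs, stood at 34.9 and 37.5 CPM against 3.71 and 3.14 CPM, and Pon1, a paraoxonase, at 106 and 77.0 CPM against 11.3 and 1.84 CPM. Wildtype neighbours held Cyp2b10 at 11.4 and 3.12 CPM and Pon1 at 39.5 CPM in replicate 1, below both Confetti libraries, and lower still in replicate 2. Other lower genes named by rule differed less, such as the collagen VI gene Col6a2 at 6.96 and 6.72 CPM against 22.1 and 22.7 CPM, and the lipid-transfer gene Sec14l2 at 10.7 and 6.39 CPM against 35.2 and 33.6 CPM. In wildtype neighbours Col6a2 stood at 13.1 and 22.0 CPM and Sec14l2 at 17.5 and 18.0 CPM. All of these lay below both Confetti libraries, for Col6a2 in replicate 2 only narrowly. The adjusted p of all 24 genes named by this rule ran from 0.179 to 0.8 in edgeR. Of the 49 shared lower genes, 15 were at least 2-fold below Confetti in both 4 days YFP libraries, and 1 was at least 2-fold below the same-numbered YFP library in both replicates, where 8 of all genes tested were. Of the 67 shared higher genes, 33 were at least 2-fold above the same-numbered YFP library in both replicates, where 55 of all genes tested were, and 10 were 2-fold above Confetti in YFP too. Scgb3a1, an airway secretoglobin, stood at 94.0 and 41.8 CPM in Confetti and at most 1.84 CPM in the mutant libraries. Wildtype neighbours held it at 0.424 and 3.42 CPM. The gene was at 0.707 and 0.604 CPM in Sftpc-high cells of Confetti, and at 17288 CPM in the few Scgb1a1-high cells of Confetti RFP. The smooth muscle genes Acta2 and Tagln were also lower, with Acta2 at 9.84 and 13.0 CPM against 0.0508 and 0 CPM, beside a summed mesenchymal marker level of 17.3 and 0.217 CPM against 21.9 and 32.7 CPM. In wildtype neighbours of replicate 1 Acta2 stood at 29.5 CPM and Tagln at 36.3 CPM, above both Confetti libraries, with a summed marker level of 82.6 CPM. Those of replicate 2 lay below Confetti in all 3 values, with Acta2 at 0 CPM. The part of mesenchymal RNA in these values was not tested.

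Detoxification genes and lipid synthesis genes stood lower in both mutant replicates for most members. Of 21 detoxification and antioxidant genes, 14 lay below and 3 above both Confetti libraries in both replicates, with medians of -0.51 and -1.39. Of all genes tested, 24.5% lay below and 22.5% above. The carbonyl reductase gene Cbr2 stood at 3374 and 3187 CPM in Confetti, 2326 CPM in replicate 1 and 371 CPM in replicate 2, and the carboxylesterase gene Ces1d at 191 and 37.4 CPM against 337 and 279.8 CPM. In wildtype neighbours Cbr2 stood at 2909 and 963 CPM and Ces1d at 267 and 116 CPM, below both Confetti libraries and in the same order of replicates. The 3 members above were Nqo1, Txnrd1 and the cystine transporter gene Slc7a11, which stood at 23.2 CPM in replicate 2 against at most 0.914 CPM in the other 3 libraries. Of 20 sterol and fatty acid synthesis genes, 16 lay below and 1 above, 0 beyond 2-fold in both, with medians of -0.56 and -0.43. Fasn, the fatty acid synthase gene, stood at 602 and 611 CPM against 391 and 345 CPM. In Sftpc-high cells the detoxification medians were -0.21 and -0.72 and the sterol medians -0.61 and -0.03. Fasn stood there at 396 CPM in replicate 1 and 620.1 CPM in replicate 2.

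Most cell cycle genes stood higher in both replicates, more so in replicate 2. Of 21 members, 19 lay above both Confetti libraries and 0 below, 1 beyond 2-fold in both and 9 in replicate 2, with medians of 0.71 and 1.09. Of all genes tested, 22.5% lay above, 0.451% beyond 2-fold in both and 8.6% in replicate 2. In Sftpc-high cells 19 again lay above both Confetti libraries, 0 beyond 2-fold in replicate 1 and 16 in replicate 2. The medians there were 0.67 and 1.53. Of 13694 genes tested in these cells, 3112 lay above both Confetti libraries in both replicates. Beyond 2-fold above were 0.796% in replicate 1 and 4.62% in replicate 2. The mitotic ubiquitin enzyme gene Ube2c stood at 48.8 and 43.2 CPM in Confetti and 99.6 and 126 CPM in the mutant replicates, but wildtype neighbours stood at 28.6 and 156 CPM, on both sides of that range. Pclaf, a PCNA clamp-associated factor, stood at 6.88 and 5.80 CPM, 25.5 CPM and 52.4 CPM, and at 7.03 and 45.0 CPM in wildtype neighbours. Within replicate 2, the DNA topoisomerase gene Top2a stood at 58.4 CPM in Sftpc-high and 15.5 CPM in Sftpc-low, Scgb1a1-low cells. Mki67, a marker of cycling cells, was detected after thinning in 1.74% of Confetti RFP cells (1.36 to 2.21) and 2.55% of Confetti YFP cells (2.09 to 3.08). The share was 2.74% (2.25 to 3.31) in mutant replicate 1 and 2.60% (1.87 to 3.51) in mutant replicate 2, and 1.77% and 3.11% in wildtype neighbours, so the mutant shares lay between the lowest and the highest wildtype library. Among CDK inhibitors and p53 targets, Gdf15, a stress cytokine, was 2-fold higher in both replicates at 157 and 159.5 CPM against 70.2 and 74.7 CPM, and wildtype neighbours stood at 66.6 and 42.9 CPM. That list had 11 of 15 members above and medians of 0.29 and 0.69. In Sftpc-high cells 4 of 15 lay above, with medians of 0.29 and -0.07.

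Further shared higher genes are given singly, and Asns, Aldh18a1 and Myc were picked after their values had been seen. Phgdh, which starts serine synthesis, stood at 2.37 and 2.18 CPM in Confetti, 17.2 CPM in replicate 1 and 182 CPM in replicate 2. Asns (asparagine synthetase) stood at 7.59 and 5.17 CPM against 19.2 and 42.3 CPM, and Aldh18a1, of proline synthesis, at 1.19 and 1.25 CPM against 3.60 and 10.3 CPM. The growth factor response gene Myc stood at 8.54 and 9.48 CPM, 22.4 CPM and 41.1 CPM. Wildtype neighbours held Myc at 7.45 and 1.92 CPM, below both Confetti libraries. They stood above both Confetti libraries for Phgdh at 6.10 and 7.87 CPM, Asns at 15.8 and 8.95 CPM and Aldh18a1 at 2.03 and 3.30 CPM. Among the 12 higher genes named by rule was also Pglyrp1, a bacterial peptidoglycan-binding protein, at 93.5 and 259 CPM against 15.3 and 13.0 CPM. Another was the serine protease gene Prss22, at 3.20 and 53.9 CPM against at most 0.237 CPM. Wildtype neighbours held Pglyrp1 at 28.0 and 123 CPM, above both Confetti libraries, and Prss22 at 0.339 and 1.02 CPM. Gm8797 (51.7 and 19.2 CPM against 5.51 and 4.43 CPM) is a predicted gene model whose reads may be shared with near-identical copies, and it was as high in wildtype neighbours.

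Inflammatory and stress lists differed between the replicates. Of 17 chemokines and colony-stimulating factors, 2 were at least 2-fold above Confetti in both replicates, against 0.451% of all genes. The neutrophil-attracting chemokine gene Cxcl3 stood at 14.4 and 8.66 CPM in Confetti, 51.5 CPM in replicate 1 and 112 CPM in replicate 2, and Cxcl2 at 24.6 and 19.3 CPM against 58.9 and 76.9 CPM. Ptgs2, the inducible cyclooxygenase gene, stood at 84.3 and 112 CPM against 31.2 and 31.3 CPM. The chemokine list had 10 of 17 members above both Confetti libraries in both replicates, where 22.5% of all genes tested lay above. Its medians were 0.43 and 1.77, and several of its members, such as Ccl2 and Ccl7, are also macrophage genes. NF-kB subunits, inhibitors and targets had medians of 0.21 and 0.51 over 19 members, and the inhibitor gene Nfkbia stood at 335 CPM in replicate 1 and 157 CPM in replicate 2 against 241 and 230.4 CPM, on opposite sides. Heat-shock chaperones had medians of 0.55 and 0.14 over 13 members, with Hspa1a at 405 CPM in replicate 1 and 103 CPM in replicate 2 against 165 and 159 CPM. AP-1 and immediate-early genes also respond to tissue dissociation. Of these, 11 of 17 lay above both Confetti libraries in both replicates, against 22.5% of all genes tested. Their medians were 0.49 and 0.28, and Fosb was as high in wildtype neighbours (196 and 284 CPM) as in mutant replicate 1 (238 CPM).

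Primed AT2 and interferon genes stood higher in replicate 2 than in replicate 1. Lcn2, the lipocalin of primed AT2 cells, stood at 2119 and 1777 CPM in Confetti, 2334 CPM in mutant replicate 1 and 3776 CPM in mutant replicate 2. In 4 days YFP cells it stood at 1874 CPM in replicate 1 and 7102 CPM in replicate 2. The share of kept cells with a Lcn2 UMI after thinning ran the other way in mutant cells. It was 87.3% in mutant replicate 1 and 59.8% in mutant replicate 2, against 85.1% and 84.6% in Confetti. In 4 days YFP cells it was 78.1% and 97.7%. Bst2, an interferon-induced membrane protein, stood at 56.6 and 51.9 CPM, 86.7 CPM and 215 CPM, with 85.4 and 282 CPM in YFP cells. Both replicate 2 libraries thus lay above both replicate 1 libraries in the CPM of these genes, whatever the genotype. The primed list had medians of -0.31 and 0.96 over 15 members, with 5 members 2-fold higher in replicate 2 and 0 in replicate 1, and the interferon list 0.20 and 1.09 over 19 members, with 10 and 0. Of all genes tested, 8.6% were 2-fold higher in replicate 2 and 0.66% in replicate 1. MHC class II genes had medians of 0.37 and 0.15 over 9 members, glycolysis and hypoxia genes 0.09 and 0.44 over 18, Wnt, Notch and TGF-beta genes -0.21 and -0.34 over 27, and YAP-TEAD targets -0.01 and 0.05 over 10.

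**Figure D5:**
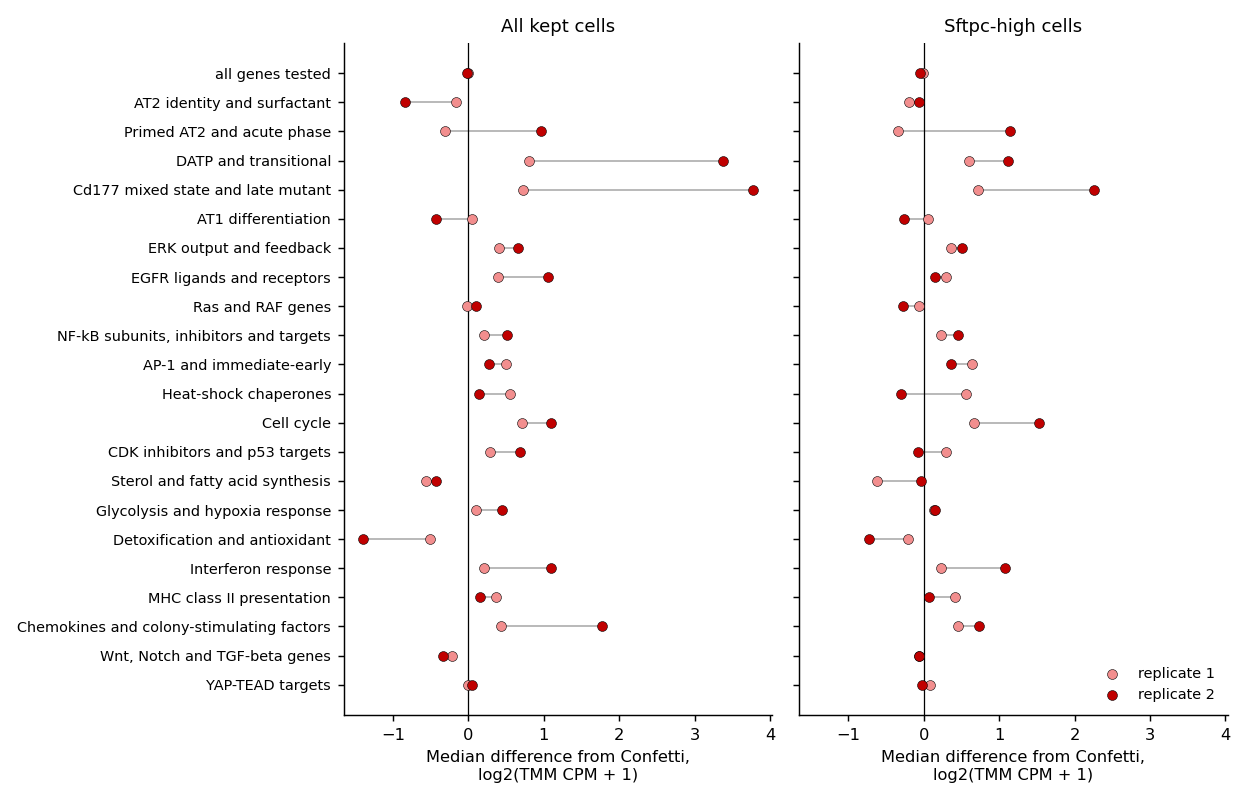
Median difference from the mean of both Confetti libraries, in log2(TMM CPM + 1), over the members of each gene list in mutant replicate 1 (light points) and replicate 2 (dark points), for all kept cells (left) and for Sftpc-high cells (right). The DATP medians are 0.80 and 3.37 on the left and 0.60 and 1.12 on the right, and those of all genes tested are -0.01 and -0.02 on the left.

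The genes that differed most between the mutant replicates were of several kinds. Of the 12 genes with the largest higher value in replicate 2, Ccl17, Ccl6, Cd52, AA467197, Il1b, Wfdc17, Tyrobp, Ccl8 and Ctss are expressed by leukocytes, and Cd52 stood at 309.7 CPM in replicate 2 and 4.47 CPM in replicate 1. Cd52 was at 0.527 and 1.60 CPM in Sftpc-high cells, after cells with at least 2 immune genes had been left out. The other 3 were Aldh1a3, Ndrg1 and Hmga2, which the Sftpc-low cells carried. Among the 12 genes with the largest higher value in replicate 1, Hbb-bs, a globin gene of red blood cells, stood at 52.7 and 226 CPM in Confetti, 234 CPM in replicate 1 and 0 CPM in replicate 2. Lyz1 stood at 3438 and 701 CPM, and the chitinase gene Chia1 at 434 and 54.4 CPM. Wildtype neighbours showed the same order of replicates for all 3 of these, with Hbb-bs at 562 and 0 CPM.

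Markers of other cell types were at different levels in the 4 libraries. Ciliated markers had a summed level of 211 and 239 CPM in Confetti and 142 and 160 CPM in the mutant replicates. Of 8 members, 6 lay below both Confetti libraries in both replicates, where 24.5% of all genes tested did. Airway secretory markers had a summed level of 5765 and 9271 CPM in Confetti and 4802 and 16278 CPM in the mutant replicates, nearly all of it Scgb1a1 (4711 and 16126 CPM in the mutant replicates). Of 17 immune markers tested, 10 were 2-fold higher in replicate 2 and 0 in replicate 1. Of 9 endothelial markers all 9 were 2-fold lower in replicate 2. Of all genes tested, 8.6% were 2-fold higher and 6.04% 2-fold lower in replicate 2, and 0.66% were 2-fold higher in replicate 1. With cells of at least 2 immune genes left out, an alternative chosen after the data were seen, 63 and 49 genes lay beyond 2-fold of both Confetti libraries in both replicates, close to the 67 and 49 over all kept cells. The part of the other cell types in single genes was not tested.

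The Y-linked genes separate the all-female Confetti libraries from the mutant pools, and were used above to read sex. Ddx3y had 0 UMIs in Confetti and stood at 18.1 and 31.0 CPM in the mutant replicates, at least 269-fold higher, and at 15.1 and 37.0 CPM in wildtype neighbours. Xist, the X-inactivation RNA of females, stood at 718 and 652 CPM in Confetti, 590.3 CPM in replicate 1 and 0.433 CPM in replicate 2. Of the 67 shared higher genes 4 were Y-linked, and 0 of the 49 shared lower genes were sex-linked by the list used. In differences from Confetti, sex and genotype cannot be told apart, whereas same-numbered mutant and wildtype libraries at 4 days were nearly matched in sex.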

How the data were processed

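Single-cell RNA was measured in droplets, and the authors deposited UMI counts per gene and cell barcode, aligned to GRCm38. The matrix headers name Cell Ranger 5.0.1 and the submitters' processing notes name Cell Ranger 3.1.0, FastQC 0.11.3 and MultiQC 1.8. The labels and the methods disagree on the chemistry version. Barcodes were filtered as in the opening, without doublet removal, and UMIs were summed per library (9210705 to 20417301 UMIs) without mitochondrial genes. edgeR 4.0.16 in R 4.3.3 fitted 10 libraries in 6 groups by quasi-likelihood with TMM scaling, after filterByExpr, and set 4 days RFP against the mean of both Confetti groups, with Benjamini-Hochberg adjustment at 0.05. The p-values measure the spread between the replicate pools of the Red2Kras groups. Neither Confetti colour has a replicate, so its spread was not measured and was assumed to equal theirs. DESeq2 1.42.0 was an alternative. Differences per library are on log2(CPM + 1), which understates the change of low genes. Genes at 0 were given a floor of 3 UMIs over the group. Shares of cells were computed after thinning to 2000 UMIs, with exact Clopper-Pearson 95% intervals. Summaries used Python 3.11.15, pandas 2.3.3 and scipy 1.17.1. The scripts were tested on simulated data.

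Named genes were any past an adjusted p of 0.05, then the 12 in each direction with the largest smaller-of-2-replicates difference, beyond both Confetti libraries and at a mean of at least 20 CPM in the higher group, without sex-linked genes. A further 12 in each direction were those with the largest difference between replicates at 50 CPM or more, and list members were added. The members, the 27 lists and the rules were chosen with earlier results of these data known. Other genes were named after their values were seen.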

Additional observations from a re-analysis of the deposited data

How the results depend on the processing

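Over the 17 settings of the comparison of 4 days RFP with Confetti, the number of genes called moved from 0 to 126 with DESeq2, to 240 with no filter on low counts and to 3 in Sftpc-high cells. Leaving out 1 library each gave 0 to 10 genes, with 10 without mutant replicate 1 (Fam107b, Ecm1, Hmga2, Sox9, Plekhg3, Ndrg1, Hmga1, Ddx3y, Fosl1 and Dusp5). The mutant group then is replicate 2 alone, assumed to vary like the other groups. Without either 4 days YFP library, which enters the shared spread only, 1 gene was called, Ddx3y. The 67 shared higher genes became 25 with a pseudocount of 5 and ranged from 98 to 1278 when 1 library was left out. The 49 shared lower genes became 16 with a pseudocount of 5 and ranged from 68 to 897 when 1 library was left out. In both counts the highest value came without mutant replicate 1, where replicate 2 alone decides. Without replicate 2 the counts were 98 and 81, and without Confetti RFP or YFP they were 101 and 113 or 101 and 68. The other settings, among them 2 cell filters chosen after the data were seen, kept these counts within 1.5-fold.

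Set against the 4 days YFP cells, mutant cells gave 0 genes called in edgeR (511 at an unadjusted p under 0.05), 42 in DESeq2, 99 with no filter and 0 to 1 when 1 library was left out, the 1 without mutant replicate 1. With the replicate number as a block over the 8 Red2Kras libraries, 0 genes were called, 771 had an unadjusted p under 0.05 and the smallest adjusted p was 0.512. Deviations of same-numbered libraries correlated at 0.0341 to 0.59 across genes, 0.414 between RFP and YFP at 4 days, so the numbers do not pair all groups. No paired analysis was possible for Confetti because it has replicate 1 only. The values of the 24 genes named for shared differences kept their direction in all 408 values. These genes were chosen because both mutant libraries lay beyond both Confetti libraries on the same side. That choice left little room for a reversal, so the count is no evidence of robustness. List medians, taken once per list and setting and not per replicate, changed sign in 16 of 459 values. These were in 8 of 27 lists (primed AT2, AT1, Ras and RAF, MHC class II, Wnt, Notch and TGF-beta, YAP-TEAD, immune and mesenchymal). Medians per replicate also changed sign in other lists between all kept cells and Sftpc-high cells. In replicate 2 the CDK inhibitor and p53 list went from 0.69 to -0.07 and heat-shock chaperones from 0.14 to -0.30. In replicate 1 the endothelial list went from -0.57 to 0.08. All 48 shares of cells were lower after thinning. The replicate difference of Il1b, Wfdc17 and Ctss changed sign once cells with at least 2 immune genes were left out. The cause was not tested in these cases. With 2 mutant pools, 1 Confetti library per colour and replicates that differ this much, small differences were not detectable, and large ones could go uncalled. Dlk1, at least 260-fold higher in mutant cells than in Confetti, had an edgeR adjusted p of 0.673.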
